A study of Gallus gallus with 16 samples.

Results

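Epithelium was set against pulp in growing primary remiges, the long flight feathers of the chicken wing. The 8 libraries were those whose labels name a primary remige, 4 of epithelium and 4 of pulp, out of 16 in the series; the other 8 came from body plumes. Each tissue had 2 libraries from the lateral side of the feather, where the vane is narrow, and 2 from the medial side, where it is wide. Of each such pair 1 library belonged to batch I and 1 to batch II, which the submitters call biological replicates.

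All birds were White leghorn chickens of 1 supplier, Spafas, with no treatment and no engineered allele in any group, and the labels give neither age nor sex. Proximal follicles of 3 primary remiges were opened into their lateral and medial sides, and each side was split into epithelium and mesenchyme (the pulp) in 2xCMF, a saline without calcium and magnesium. A library is therefore a pool of follicles. The labels do not say whether the 2 sides or the 2 tissues of a batch came from the same birds, so the p-values measure the spread between these libraries.

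The feather follicle is a tube of epidermis around a core of living dermis. Its epithelium proliferates at the base, folds into the barb ridges and finally cornifies, filling with keratins and feather corneous beta proteins. The pulp carries the blood vessels and nerves, feeds the growing feather, and exchanges secreted signals with the epithelium in both directions. Both tissues are mixtures of cell types, and in such bulk samples fewer cells of a type cannot be told apart from less RNA per cell.

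Epithelium libraries had 42197370 to 45755636 alignments and pulp libraries 29379206 to 37000130. At least 1 TPM (a per-length unit with the same total in every library, here the deposited RPKM rescaled to that total) was reached by 10777 to 11025 genes in epithelium and 12157 to 12427 in pulp. The libraries of 1 tissue resembled each other far more than those of the other: across genes, log2(TPM + 1) correlated with r of 0.972 to 0.993 within epithelium, 0.951 to 0.987 within pulp and 0.683 to 0.741 between tissues, where genes are not independent replicates.

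The 2 batches differed in genes of the W chromosome. HINTW, a multi-copy gene of that female-specific chromosome of birds, had 2.74, 1358, 3.05 and 1346 TPM in epithelium and 0, 1179, 0 and 1276 TPM in pulp, always in the order lateral batch I, lateral batch II, medial batch I and medial batch II that is kept below. It was thus near 0 in all 4 batch I libraries and among the abundant genes in all 4 of batch II. ATP5A1W, another W-linked gene, was at 12.8 to 14.7 TPM in batch I and 178 to 187 TPM in batch II. The study describes its birds as roosters, and the W-linked transcripts of batch II go against that for these 4 libraries. Batch also carried HSPA8, a constitutive heat shock chaperone, at 857 to 1051 TPM in batch I and 160.1 to 226.9 TPM in batch II. These 3 genes were chosen after their values were seen. Every group has 1 library of each batch, so the batch label was balanced over the tissues and kept as a term in the fit. Counts within each batch are given below.

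Epithelium differed from pulp in most genes. With limma on log2(TPM + 1), a term for side and a term for batch, 3098 of 12954 genes tested were higher in epithelium (23.9%) and 6916 were lower (53.4%) at an adjusted p under 0.05 (Benjamini-Hochberg). All 4 epithelium libraries lay above all 4 pulp libraries in 18.6% of genes and below them in 44.8%. Differences of at least 4-fold were found upwards in 464 genes (3.58%) and downwards in 1795 (13.9%). These 4 shares are the background for the counts of gene groups given below. Genes were tested where the mean of a group (side and tissue) reached 1 TPM. A gene under 1 TPM in every library of 1 tissue thus entered only through the other tissue. The direction of its difference was largely fixed beforehand, and this holds for such members of every gene group below. Batch I alone gave 2589 genes higher and 5760 lower, and batch II alone, the libraries with W-linked transcripts, gave 2470 and 6318.

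The excess of genes lower in epithelium rested in part on the scaling. The median difference over all genes was -0.35 on the log2 scale, that is, most genes lay somewhat lower in epithelium. Under quantile normalization it was 0.15, with 5829 genes higher and 4342 lower, and 747 and 1212 at 4-fold. With the 100 most abundant genes left out of the scaling it was -0.16, with 4065 higher and 5835 lower. Small differences are therefore best read relative to that median.

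**Figure D1:**
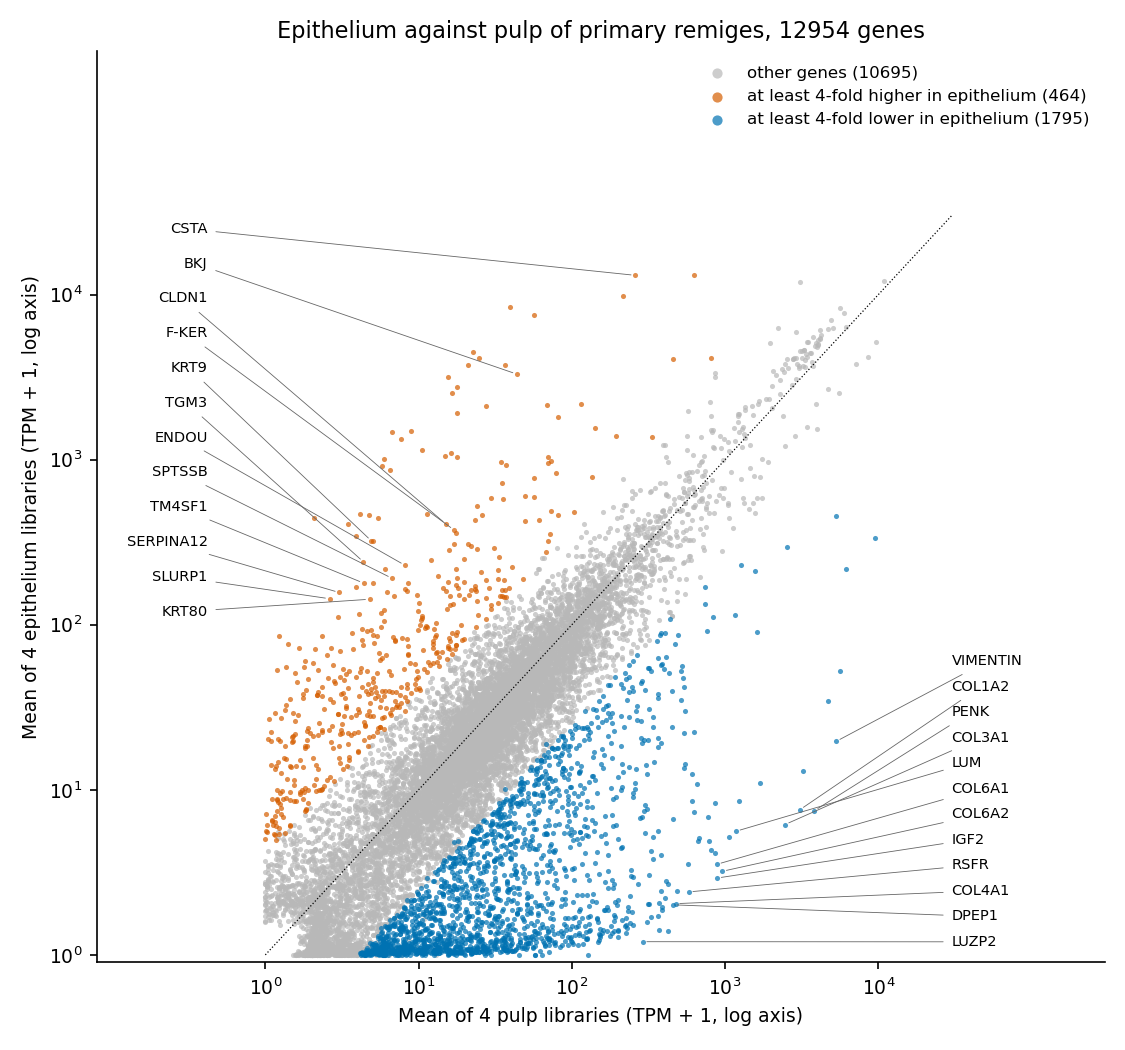
Mean level of each of 12954 genes in the 4 epithelium libraries (vertical axis) against the 4 pulp libraries (horizontal axis), both in TPM plus 1 on log axes. Genes called at least 4-fold higher in epithelium (464) are orange, at least 4-fold lower (1795) blue and all others grey, and the 24 genes with a symbol and the largest differences at 100 TPM or more are labelled. Blue genes reach the floor of the epithelium axis up to about 100 TPM in pulp, whereas the most abundant orange genes stand clear of the floor of the pulp axis.

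The largest differences toward epithelium among genes with a symbol were in genes of the cornifying keratinocyte. BKJ, a gene related to the avian beta keratins, came first, with 4394, 1539.6, 5291 and 1967 TPM in epithelium and 15.1, 16.3, 122 and 17.7 TPM in pulp. The tissues did not overlap, although batch II had the lower epithelial level on both sides and 1 pulp library, the medial one of batch I, stood above the others (log2 difference 6.68, SE 0.43, adjusted p = 4.68e-06). BKJ and the feather keratin gene F-KER belong to multi-copy families with similar coding sequences, so their levels are uncertain. CSTA, encoding cystatin A, a protease inhibitor of the cornified envelope, had 13281, 16420.0, 8481 and 14139 TPM in epithelium and 83.0, 69.8, 619 and 261 TPM in pulp. TGM3, the transglutaminase that crosslinks the envelope, had 239, 261, 211 and 245 TPM and 7.67, 0.825, 3.77 and 1.21 TPM. KRT9, a type I keratin, had 273, 425, 221.2 and 365 TPM against 2.89, 2.88, 5.29 and 4.63 TPM. In all 3 the lowest epithelium library was more than 10 times above the highest pulp library, with log2 differences of 6.17 (SE 0.59, adjusted p = 4.05e-05), 6.06 (SE 0.38, adjusted p = 3.77e-06) and 6.02 (SE 0.22, adjusted p = 2.40e-07).

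The other 8 of the 12 genes ranked highest by this difference were SLURP1, a secreted keratinocyte peptide, the serpin SERPINA12, F-KER, the tetraspanin-like membrane protein TM4SF1, the tight junction claudin CLDN1, the keratin KRT80, SPTSSB, a subunit of the first enzyme of sphingolipid synthesis, and the endonuclease ENDOU. Their epithelial means ran from 142 TPM (KRT80) to 405 TPM (CLDN1), their pulp means from 1.62 TPM (SLURP1) to 16.1 TPM (F-KER), and their log2 differences from 4.85 (ENDOU, SE 0.16) to 5.91 (SLURP1, SE 0.27). F-KER was the least even of them, with 209, 214, 606 and 466 TPM in epithelium and 1.08, 18.2, 43.1 and 1.85 TPM in pulp (SE of the log2 difference 0.95, adjusted p = 0.00128). TM4SF1 had 244, 93.7, 261 and 112 TPM in epithelium, with batch I above batch II on both sides.

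Many of the most one-sided epithelial genes are listed by an Ensembl ID only, which the tables used here do not pair with a name. Such IDs made up 14.2% of the genes tested, 32.1% of the genes at least 4-fold higher in epithelium and 14.5% of those at least 4-fold lower. At 100 TPM or more, 23 of them exceeded the difference of BKJ, with epithelial means of 406 to 8465 TPM and pulp means of 1.07 to 55.8 TPM. No gene with a symbol did. What these genes encode was not analysed here.

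Toward pulp the differences were larger among genes with a symbol. PENK, the precursor of the enkephalin opioid peptides, had 4369, 4074, 3455 and 3364 TPM in pulp and 5.70, 10.1, 5.49 and 4.60 TPM in epithelium, the largest difference among these ranked genes (log2 difference -9.04, SE 0.15, adjusted p = 9.83e-09). The intermediate filament gene of mesenchymal cells, listed as VIMENTIN, had 5363, 5345, 4999 and 5539 TPM in pulp and 14.4, 18.6, 19.7 and 21.9 TPM in epithelium. IGF2, an insulin-like growth factor, had 799.9, 1180.5, 672 and 896 TPM in pulp and 1.19, 3.27, 1.80 and 1.42 TPM in epithelium. LUZP2, a leucine zipper protein gene of which little is known, had 329, 307, 248 and 271 TPM in pulp and 0.0951, 0.247, 0.268 and 0.197 TPM in epithelium. No epithelium library reached 1 in 100 of the lowest pulp library in any of these 4 genes.

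The other 8 of the 12 ranked genes on the pulp side were mostly matrix genes: the collagens COL1A2, COL3A1, COL6A1, COL6A2 and COL4A1 and the keratan sulphate proteoglycan LUM, with the dipeptidase DPEP1 and the ribonuclease RSFR. COL1A2 had 3078 ± 486 TPM (SD, n = 4) in pulp and 6.58 ± 4.17 TPM in epithelium. COL3A1 had 2457 ± 566 and 5.16 ± 2.37 TPM. RSFR was the least even in pulp, with 715, 374, 852 and 373 TPM, since its batch I libraries had about 2 times the batch II level. The log2 differences of the 8 genes ran from -8.79 (COL1A2, SE 0.23) to -7.78 (LUM, SE 0.18), and in none of them did the tissues overlap.

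The tissues were described by cell type markers from textbook knowledge of mammalian and avian skin. The lists were drawn up with earlier results of these data known, so their counts are no independent check of the tissues. Of 24 keratinocyte markers tested, 22 were higher in epithelium and 0 lower, with a median log2 difference of 2.68 against -0.35 over all genes. The desmosome genes PPL, PKP1 and DSP led them: PPL, encoding periplakin, had 246 ± 12.7 TPM in epithelium and 11.1 ± 4.96 TPM in pulp. ITGB4, an integrin of the basal cell's anchorage, was among the 2 that were not called, at 0.22 (SE 0.11). All 21 fibroblast markers tested were lower in epithelium, each by at least 4-fold, with a median of -6.91. Of these, 6 were under 1 TPM in every epithelium library and passed the filter only through pulp.

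Pulp also held the genes of its vessels, nerves and blood. All 18 endothelial markers tested were lower in epithelium (median -5.31), all by at least 4-fold. CDH5, the cadherin of endothelial junctions, had 157, 176, 195 and 176 TPM in pulp and 0.163, 0.566, 0.249 and 0.254 TPM in epithelium. EMCN, a sialomucin of venous and capillary endothelium, had 173, 167, 204 and 209.7 TPM and 0.328, 0.596, 0.281 and 0.371 TPM. The 4 pulp libraries lay close together in both genes, whatever their side or batch. All 12 markers of smooth muscle and pericytes tested were lower in epithelium, led by ACTG2, a smooth muscle actin, with 571 ± 115.1 TPM in pulp and 2.55 ± 1.23 TPM in epithelium, and by the pericyte gene RGS5. All 21 leukocyte markers tested were lower in epithelium as well (median -4.27). Under 1 TPM in every epithelium library were 13 of 19 endothelial markers in the table, 7 of 12 of smooth muscle and pericytes and 12 of 21 of leukocytes. Those of them that were tested passed the filter only through pulp, so their direction was largely fixed beforehand.

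All 21 leukocyte markers tested were lower in epithelium, and their evenness over the pulp libraries differed from gene to gene. CD3E, a T cell receptor subunit, had 25.8, 6.52, 33.1 and 5.11 TPM in pulp and PTPRC, the leukocyte common antigen, 38.4, 15.4, 42.99 and 16.1 TPM. The MHC class II invariant chain CD74, listed as II, had 2330.3, 1278, 2200.5 and 991 TPM in pulp and 14.5, 11.5, 7.85 and 5.97 TPM in epithelium. The class II beta chain BLB1 had 1258, 512, 1214 and 459 TPM in pulp and 10.7, 6.78, 7.35 and 4.55 TPM in epithelium, and its reads may be shared with the similar gene BLB2. In each of these 4 genes both pulp libraries of batch I stood above both of batch II. LAPTM5, a lysosomal membrane protein of blood cells, differed less between them, at 323, 299, 343 and 283 TPM. The globin gene HBAA, a marker of red cells, went the other way, with 302, 757, 463 and 1121 TPM in pulp and 3.67, 2.75, 4.85 and 4.42 TPM in epithelium. Of 10 erythroid markers tested 9 were lower in epithelium.

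Few melanocyte genes were read in these white-feathered birds. Of 16 markers in the table, 8 passed the filter of 1 TPM in a group mean, and 10 were under 1 TPM in every pulp library and 8 in every epithelium library. The pigment enzyme genes TYR, TYRP1 and DCT did not pass. MITF, a master factor of melanocytes that other cells use as well, was among the 5 called toward epithelium, with 34.9 ± 3.45 TPM and 25.8 ± 5.17 TPM in pulp. KIT, the receptor of stem cell factor, was the marker called toward pulp, with 8.93 ± 0.820 TPM there and 0.891 ± 0.416 TPM in epithelium. Of 8 nerve and Schwann cell markers tested, 6 were lower in epithelium, among them GAP43, a protein of growing axons, with 33.8, 20.6, 22.4 and 21.5 TPM in pulp and 0.0602, 0.0522, 0.0565 and 0.199 TPM in epithelium. TUBB3, a tubulin used as a neuronal marker, was against them, with 92.8, 102, 158 and 171 TPM in epithelium and 7.47, 17.9, 15.6 and 19.1 TPM in pulp. Of 12 skeletal muscle markers only 5 had values, and 1 of these, the actin ACTA1, passed the filter. Of 20 genes tested that mark the dermal papilla of mammalian hair, 16 were lower in epithelium (median -3.87). LEF1 (listed as LEF-1), TRPS1, HEY1 and WIF1 were not called. Among the 22 papilla genes with values, 12 stayed under 1 TPM in every epithelium library. Those of them that were tested passed the filter only through pulp, so their direction was largely fixed beforehand.

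The 2 tissues were not equally free of each other's markers. In the 4 pulp libraries the median keratinocyte marker stood at 11.6%, 14.4%, 19.5% and 18.8% of its epithelial mean. In the 4 epithelium libraries the median fibroblast marker stood at 0.313%, 0.416%, 0.320% and 0.399% of its pulp mean. The fibroblast markers nearest to pulp in epithelium were the proteoglycan gene DCN, with 222.5, 198, 221.9 and 198 TPM against 1754, 1707, 1448 and 1369.5 TPM in pulp, and then COL5A2 and the fibronectin gene FN1, at 6.42% and 4.78% of the pulp mean (chosen after their values were seen). The median endothelial marker was at 0.266 to 0.528% and the median leukocyte marker at 0.773 to 1.40% in epithelium. Summed over the 24 genes, keratinocyte markers gave 12030.5 to 13218 TPM in epithelium and 2063 to 2965 TPM in pulp. Summed over the 21 fibroblast genes, the level was 328 to 364 TPM in epithelium and 22812 to 26174 TPM in pulp.

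Which epithelial genes were read in pulp depended on the gene. KRT14, a keratin of basal cells, had 1549, 1472, 1284 and 1162 TPM in epithelium and 818, 574, 796 and 586 TPM in pulp, that is 50.7% of the epithelial mean. TP63, the master regulator of basal keratinocytes, was at 57.8% and the hemidesmosome collagen COL17A1 at 67.1%. PPL was at 4.50%, TGM3 at 1.41% and KRT9 at 1.22%. Of these 6 genes the 3 of basal cells were thus nearer to their epithelial level in pulp than the 3 of differentiating cells (the genes were chosen after their values were seen, and the order was not tested). Among pulp libraries, the pulp values of DSP were 41.9, 50.02, 117 and 78.5 TPM, those of FABP5 378, 288, 1278 and 566 TPM and those of PKP1 25.04, 20.2, 56.5 and 37.2 TPM, each highest in the medial library of batch I. The part of such transcripts in the differences between tissues was not tested.

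**Figure D2:**
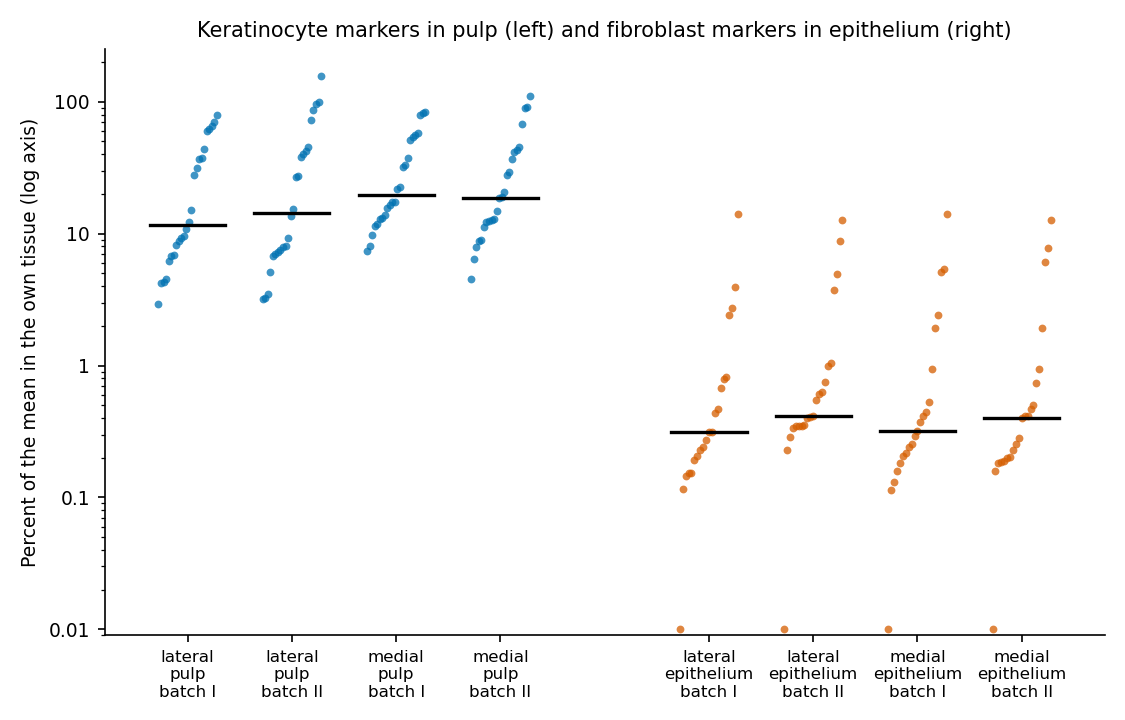
Level of each marker gene in the libraries of the other tissue, as a percentage of its mean in its own tissue, on a log axis. The left 4 columns show 24 keratinocyte markers in the pulp libraries, the right 4 columns 21 fibroblast markers in the epithelium libraries, with a bar at the median and genes at 0 drawn at the lower edge. The pulp medians lie between 11.6% and 19.5%, the epithelium medians between 0.313% and 0.416%.

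Cell junction genes split by type. All 9 genes of E- and P-cadherin and the desmosome that were tested were higher in epithelium (median 3.37). CDH1, DSP, PKP1, PKP3, JUP and PERP among them were already counted as keratinocyte markers. DSP, encoding desmoplakin, had 1184, 984, 1018 and 751 TPM in epithelium. Of 15 tight junction genes tested 10 were higher and 2 lower in epithelium. CLDN1 had 399.6, 449.6, 362 and 409 TPM in epithelium and 7.02, 6.37, 25.4 and 17.8 TPM in pulp, and CLDN4 had 42.8, 49.2, 54.2 and 61.8 TPM and 0.193, 0.801, 2.12 and 1.68 TPM, whereas CLDN10 was higher in pulp (-1.50, SE 0.29). Under quantile normalization CLDN10 was at -0.46 and not called, and it was not called in batch I alone (-0.92) or in the medial libraries alone (-1.31).

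Of 6 gap junction genes tested 2 were higher and 3 lower in epithelium. GJA1, encoding connexin 43 and one of the most abundant genes of either tissue, had 12418, 11086, 12676 and 11263 TPM in epithelium and 2908, 3422, 3118 and 2825 TPM in pulp (log2 difference 1.95, SE 0.084, adjusted p = 5.23e-07). GJB6, the epidermal connexin 30, had 288 ± 48.7 TPM in epithelium and 23.1 ± 10.7 TPM in pulp. GJA5, the arterial connexin 40, had 1.14, 0.698, 1.48 and 0.667 TPM in epithelium and 49.0, 66.8, 59.6 and 65.9 TPM in pulp, and GJA4 and GJC1 were likewise higher in pulp (-4.94 and -4.78). Of 8 other cadherins 7 were lower in epithelium, led by the mesenchymal cadherin CDH11 with 345, 346, 263 and 284 TPM in pulp and 0.445, 0.728, 0.434 and 0.695 TPM in epithelium, and NCAM1, a neural adhesion molecule, was higher in epithelium by 0.58 (SE 0.14).

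Most genes of the basement membrane, the sheet between the 2 tissues, were read from pulp. Of 12 genes of collagen IV, nidogens and associated proteins tested, 9 were lower in epithelium (median -4.50). COL4A1 had 359.8, 543, 463 and 531 TPM in pulp and 0.799, 1.82, 0.845 and 0.709 TPM in epithelium, and NID1, encoding nidogen, had 691, 1052, 653 and 722 TPM and 2.29, 6.08, 3.35 and 3.83 TPM. FRAS1, a protein of the epidermal side of the membrane, was higher in epithelium (8.70 ± 2.70 and 4.10 ± 1.55 TPM). Of 12 laminin chains 8 were lower in epithelium, led by LAMA4 (-6.27), LAMC3 (-5.97) and LAMA2 (-5.74), and LAMB3, a chain of the epidermal laminin 332, was higher there (1.14, SE 0.18, adjusted p = 7.24e-04). LAMA3, another chain of laminin 332, was not called, at -0.30 (SE 0.15). Among genes that anchor the epidermis, ITGA6 and COL17A1 were slightly higher in epithelium (0.32 and 0.61), while ITGB1, the common beta integrin, and the tetraspanin CD151 were lower (-3.07 and -2.56). The call of ITGA6 (adjusted p = 0.0444) was lost without any 1 of 7 of the 8 libraries (0.20 to 0.36), without the filter and without the batch term.

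The genes of the interstitial matrix lay in pulp. Of 13 collagens 12 were lower in epithelium, all by at least 4-fold, and COL14A1 was not called (0.40, SE 0.25). COL1A2, COL3A1 and the COL5A and COL6A genes among them were already counted as fibroblast markers. The same holds for matrix genes such as FN1, SPARC, FBN1, DCN and LUM, so these counts are not independent. Of 19 matrix glycoproteins and elastic fibre genes 18 were lower (median -5.25), led by the fibrillin genes FBN3 and FBN1 and the microfibril gene MFAP5, and EFEMP1, a fibulin, was not called (-0.21, SE 0.17). FBN3 had 268, 620.2, 307 and 493 TPM in pulp and 1.69, 3.33, 0.620 and 1.14 TPM in epithelium, with batch II pulp above batch I on both sides. Of 11 proteoglycans 10 were lower, and FMOD, encoding fibromodulin, was higher in epithelium by 0.48 (SE 0.11) with overlapping libraries.

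Matrix proteases followed the same division. Of 15 tested 11 were lower in epithelium, led by the gelatinase MMP2 with 627 ± 64.9 TPM in pulp and 6.30 ± 2.27 TPM in epithelium, and by MMP27 and ADAMTS9. ST14, the membrane protease matriptase, with ADAMTS5 and ADAMTS20, was higher in epithelium (1.31, 1.40 and 0.98). Among inhibitors RECK, TIMP3 and the collagen chaperone SERPINH1 were higher in pulp. SERPINB5, the epithelial serpin maspin, had 857, 707, 839.9 and 696 TPM in epithelium and 61.7, 28.9, 91.3 and 42.3 TPM in pulp, and SPINT1 and TIMP4 were higher in epithelium too.

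Cornification genes were higher in epithelium, with exceptions among the ceramide enzymes and the regulators. The 4 envelope genes tested, CSTA, TGM3, PPL and SCEL, were each far above pulp (50.7, 71.0, 22.2 and 9.91 times in the means). Of 9 genes of the barrier lipids 6 were higher and 2 lower. FABP5, a fatty acid binding protein, was among the most abundant genes of epithelium, with 16369, 12331, 12469 and 11472 TPM against 378, 288, 1278 and 566 TPM in pulp. ELOVL4, which makes very long fatty acids, had 135, 123, 110.5 and 102 TPM and 2.98, 1.69, 9.16 and 4.94 TPM, and CERS3, the ceramide synthase that uses them, 302, 278, 279 and 267 TPM and 13.5, 5.88, 24.4 and 14.9 TPM. SPTLC2 and DEGS1, enzymes of ceramide synthesis that most cells use, were lower in epithelium (-1.08 and -0.50). Of 6 genes of desquamation and its regulators 3 were higher and 2 lower, among these SPINK5. SPINK5, an inhibitor of desquamating proteases in mammalian skin, had 4.89, 6.34, 9.18 and 22.1 TPM in pulp and 0.0851, 0.591, 0.160 and 0.776 TPM in epithelium.

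Of 15 type I and II keratins tested 13 were higher in epithelium (median 1.78). KRT80 had 163, 129, 147 and 128 TPM in epithelium and 2.45, 3.73, 5.65 and 3.33 TPM in pulp, and KRT75, whose mammalian counterpart is a keratin of the hair follicle, 36.1 ± 15.6 and 3.07 ± 1.05 TPM. The keratin-like gene KRT222 was called toward pulp, at -0.37 (SE 0.14, adjusted p = 0.0427), with overlapping libraries and a value of 0.49 under quantile normalization. This call was lost without any 1 of 5 of the 8 libraries (-0.41 to -0.25). The filament genes of other cells, VIMENTIN, NES and DES, were higher in pulp.

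**Figure D3:**
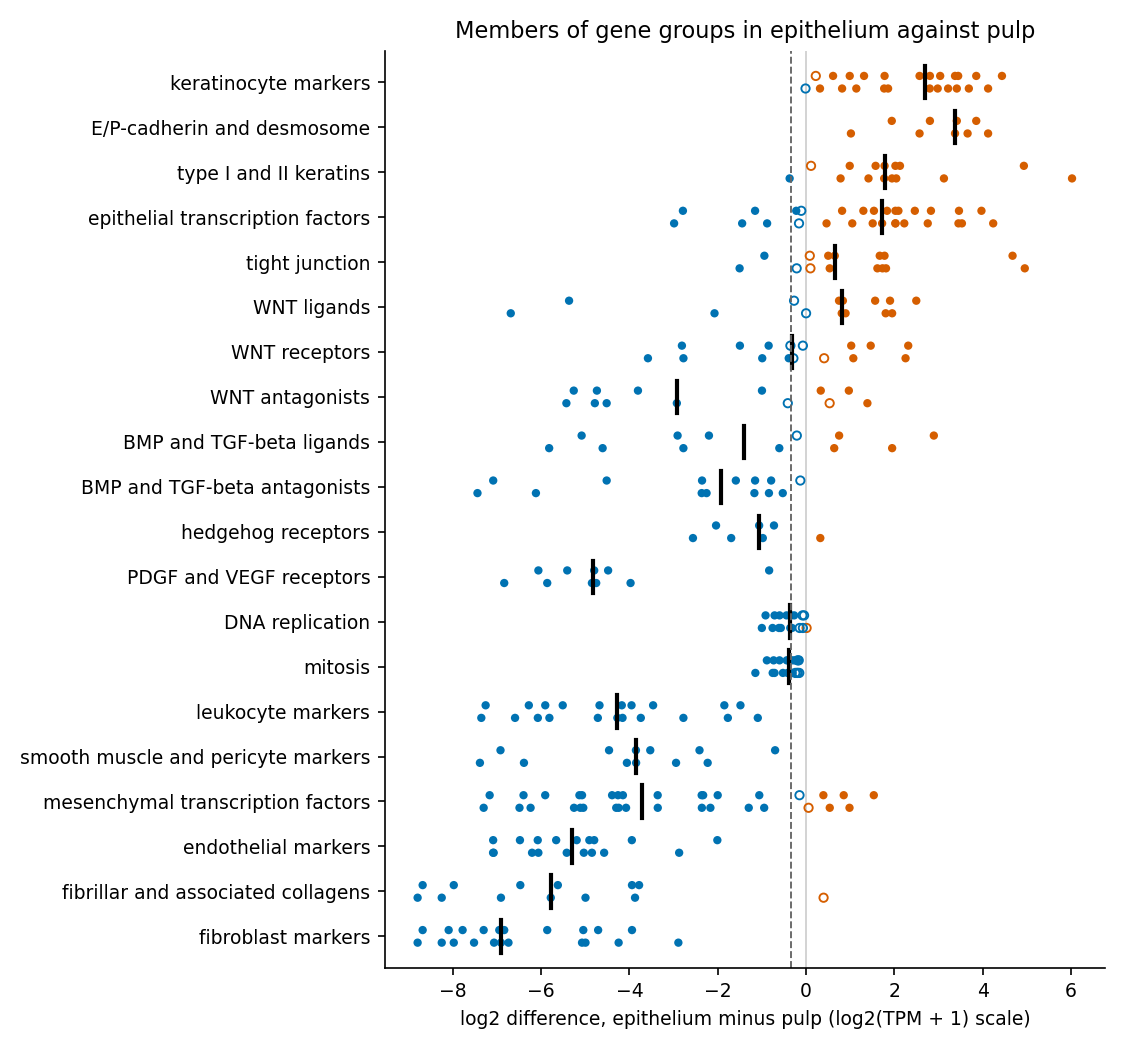
Log2 difference between epithelium and pulp (horizontal axis, positive toward epithelium) of every tested member of 20 gene groups, 1 point per gene and a bar at the median of each group, with the dashed line at the median of all 12954 genes (-0.35). Filled points passed an adjusted p of 0.05 and open points did not. Fibroblast and endothelial markers lie wholly to the left, keratinocyte and desmosome genes wholly or almost wholly to the right, and the cell cycle groups lie on the dashed line.

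Transcription factors kept the same order. Of 29 factors known from epidermis and its appendages 21 were higher and 6 lower in epithelium (median 1.72). GRHL1, a grainyhead factor of the epidermal barrier, had 284, 323, 283 and 333 TPM in epithelium and 10.6, 11.4, 23.5 and 18.8 TPM in pulp. GRHL3, its relative, had 57.5, 79.3, 73.4 and 95.2 TPM and 1.93, 4.39, 3.74 and 6.42 TPM, and FOXN1, whose loss makes mice nude, had 28.0, 26.3, 22.2 and 21.3 TPM and 0.786, 0.868, 1.75 and 1.52 TPM. All 3 were low in every pulp library. Among the 6 called against them, MSX1, listed as GHOX-7, had 10.98 ± 1.12 TPM in pulp and 0.523 ± 0.266 TPM in epithelium, and SIM2 had 4.57, 7.46, 4.86 and 7.25 TPM in pulp and was listed at 0 in all 4 epithelium libraries.

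Of 34 factors known from mesenchyme 27 were lower and 5 higher in epithelium (median -3.72). Under 1 TPM in every epithelium library were 29 of the 43 in the table. Those of them that were tested passed the filter only through pulp, so this count is no independent support. PRRX1, a homeobox factor of limb and skin fibroblasts, had 347, 377, 249 and 296 TPM in pulp and 1.39, 0.907, 1.31 and 0.505 TPM in epithelium. ZEB2, a repressor of E-cadherin, had 184, 200.1, 215 and 200.1 TPM and 0.399, 0.540, 0.445 and 0.227 TPM. EYA2, a transcriptional coactivator, had 217, 230.1, 117 and 118 TPM in pulp, higher on the lateral than on the medial side in both batches, and 1.23, 1.27, 0.397 and 0.541 TPM in epithelium. LMX1B, the dorsal factor of the limb, went against the group with 50.6, 50.9, 48.8 and 58.4 TPM in epithelium and 13.2, 12.3, 23.5 and 23.4 TPM in pulp, as did TBX3 (0.85, with overlapping libraries) and RUNX2 (0.98). The epithelial splicing regulators ESRP1 and ESRP2 were both higher in epithelium, ESRP2 with 257 ± 31.3 against 32.4 ± 8.89 TPM, and the muscle splicing factor RBM24 was higher in pulp (-3.35).

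Ligands and receptors were then placed by tissue. Of 68 ligand and receptor pairs chosen from textbook knowledge, 56 had both genes tested and 38 had both called. In 17 of these both genes were higher in pulp and in 4 both in epithelium. In 9 the ligand was higher in epithelium and the receptor in pulp, and in 8 the reverse held. Over all genes the background is 23.9% called toward epithelium and 53.4% toward pulp, and pairs that share a gene are not independent, so these counts are a description.

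**Figure D4:**
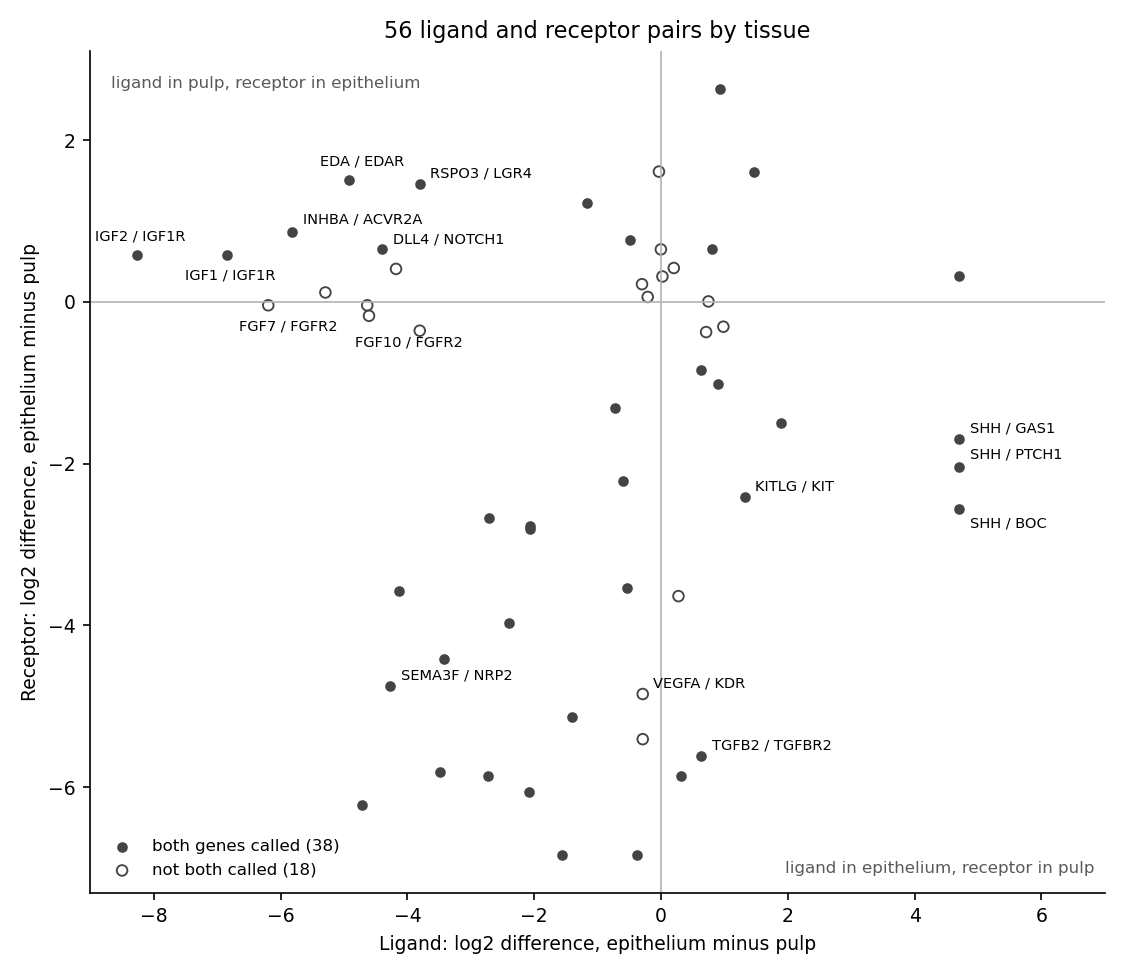
Log2 difference between epithelium and pulp of the receptor (vertical axis) against that of the ligand (horizontal axis) for the 56 pairs with both genes tested, positive toward epithelium. Filled points are the 38 pairs with both genes called, and labels give pairs named in the text. Pairs with the ligand in epithelium and the receptor in pulp lie in the lower right quadrant (SHH with PTCH1, GAS1 and BOC), and those with the ligand in pulp and the receptor in epithelium in the upper left (EDA with EDAR, INHBA with ACVR2A).

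Hedgehog signalling was divided between the tissues. In this pathway a secreted ligand releases the activator SMO from its receptor PTCH1, and PTCH1, HHIP and GLI1 are themselves targets. SHH, the ligand of the barb ridge margin, had 82.7, 95.8, 92.4 and 82.2 TPM in epithelium and 0.862, 2.59, 2.68 and 4.56 TPM in pulp (log2 difference 4.70, SE 0.23, adjusted p = 9.54e-07). PTCH1 had 7.13, 4.20, 7.03 and 3.88 TPM in epithelium and 28.0, 22.4, 31.5 and 20.3 TPM in pulp, and the co-receptor BOC 15.7, 20.5, 14.7 and 16.3 TPM and 78.8, 107, 95.9 and 140.3 TPM. HHIP, a decoy that binds the ligand, had 10.04, 10.7, 7.21 and 4.71 TPM in epithelium and 68.2, 93.3, 97.2 and 117 TPM in pulp, and GLI1 7.14, 8.99, 4.27 and 6.70 TPM and 18.2, 27.02, 18.3 and 23.4 TPM. Every epithelium library thus had more SHH, and less PTCH1, HHIP and GLI1, than any pulp library. Of 7 receptors and co-receptors 6 were lower in epithelium, and of 5 inhibitors and targets 4, with SUFU higher (0.46).

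WNT ligands lay on both sides and their agonists in pulp. Their antagonists were called in each direction near the shares of all genes, but with larger differences toward pulp. WNT proteins bind Frizzled receptors with LRP5 or LRP6, R-spondins amplify the signal through LGR receptors, and SFRP and DKK proteins block it. Of 14 WNT ligands tested 9 were higher in epithelium, led by WNT16, WNT10A and WNT7B, and 3 in pulp, WNT11, WNT2B and WNT5A. WNT10A had 39.6, 44.98, 43.3 and 48.4 TPM in epithelium and 12.7, 9.78, 12.6 and 8.16 TPM in pulp. WNT11 had 1.71, 2.31, 2.03 and 2.21 TPM in epithelium and 323, 287, 395 and 265 TPM in pulp, and WNT2B 3.07, 8.65, 1.05 and 2.37 TPM and 169, 169.7, 165 and 161 TPM. The pulp ligands were the fewer and the more one-sided, with log2 differences down to -6.69 against up to 2.49 on the epithelial side.

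All 6 genes of WNT secretion and agonism were lower in epithelium. RSPO4, an R-spondin, had 101, 96.3, 147 and 173 TPM in pulp and 0.260, 0.601, 0.244 and 1.08 TPM in epithelium, and RSPO1 238, 141, 405 and 354 TPM and 6.26, 6.88, 4.41 and 5.90 TPM, higher on the medial side in both batches. LGR4, a receptor of R-spondins, had 41.9, 45.5, 36.7 and 37.5 TPM in epithelium and 11.9, 16.3, 12.3 and 15.7 TPM in pulp, so that RSPO3 (-3.81) and LGR4 (1.46) were called in opposite directions. LGR5, another such receptor, was not called between tissues (-0.36, SE 0.25, and 0.54 under quantile normalization, where it passed), with 13.1, 11.9, 1.25 and 0.883 TPM in epithelium and 9.62, 12.01, 2.41 and 3.40 TPM in pulp, and both tissues had more of it on the lateral side. Of 16 receptors 5 were higher in epithelium, led by FZD10 (79.1 ± 24.6 and 15.1 ± 4.93 TPM) and FZD8, and 7 lower, led by FZD4 (8 and 5 under quantile normalization). Of 13 antagonists 8 were lower in epithelium, led by SFRP2 (-5.43), SFRP4 (-5.26) and SFRP1 (-4.78). Another 3 were higher, among them KREMEN1, a receptor of DKK proteins (0.97). Over all genes 53.4% were lower and 23.9% higher. The median of the antagonists was -2.93, beside -0.35 over all genes. At least 4-fold lower were 7 of the 13, beside 13.9% of all genes. Under quantile normalization their median was -2.12, beside 0.15 over all genes.

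BMP antagonists were higher in pulp. BMPs and TGF-betas bind paired serine kinase receptors, and antagonists such as gremlin and follistatin trap the ligands. Of 14 antagonists and binding proteins tested 13 were lower in epithelium and 0 higher (median -1.92). GREM1, encoding gremlin, had 768, 542, 104 and 75.00 TPM in pulp and 0.327, 0.850, 0.102 and 0.361 TPM in epithelium, and within pulp its lateral libraries held at least 5 times its medial ones. FSTL1, a follistatin-like protein, had 4653, 5786, 3886 and 4365 TPM in pulp and 27.8, 38.8, 31.3 and 35.6 TPM in epithelium, and LTBP3, which stores latent TGF-beta, 437, 513, 429.9 and 446 TPM and 4.43, 6.82, 5.26 and 6.06 TPM.

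Of 12 ligands of the family 4 were higher and 7 lower in epithelium. INHBA, the activin A subunit, had 55.8, 71.4, 64.3 and 89.2 TPM in pulp and 0.112, 0.387, 0.315 and 0.185 TPM in epithelium. INHBB, the activin B subunit, was the mirror image, with 28.0, 25.7, 33.9 and 22.5 TPM in epithelium and 2.11, 3.15, 4.11 and 2.17 TPM in pulp. BMP4 had 41.9, 38.4, 44.2 and 46.5 TPM in pulp and 0.802, 0.795, 0.610 and 0.980 TPM in epithelium. GDF10, also called BMP3B, had 48.6, 22.3, 72.8 and 79.9 TPM in pulp and 0.366, 0.397, 0.602 and 0.720 TPM in epithelium. BMP7 stood higher in epithelium, though by less, with 77.4, 77.8, 81.3 and 81.9 TPM in epithelium and 43.7, 46.7, 44.7 and 53.3 TPM in pulp. BMP2 was not called (-0.21, SE 0.15). The type I receptors BMPR1A and ACVR1 were not called either (0.062 and 0.0068, SE 0.093 and 0.085), whereas the activin receptor ACVR2A was higher in epithelium (0.87) and the TGF-beta receptor TGFBR2 in pulp (-5.62). Of 7 targets of the family tested 2 were higher and 3 lower in epithelium. MSX2 had 199, 165, 275 and 212 TPM in epithelium and 23.8, 19.7, 47.8 and 36.6 TPM in pulp. ID3 was also higher in epithelium (1.06), and MSX1 (-2.99), listed as GHOX-7, ID2 (-1.24) and SMAD6 (-0.88) were higher in pulp.

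FGF7 and FGF10, which in mammals signal from mesenchyme to the epithelial form of FGFR2, were pulp genes. FGF7 had 110.5, 59.4, 78.4 and 80.1 TPM in pulp and 0.131, 0.136, 0.123 and 0.0434 TPM in epithelium. FGF10 had 19.00, 13.1, 42.4 and 32.9 TPM in pulp, more on the medial side, and 0, 0, 0.0916 and 0 TPM in epithelium. FGFR2, of which gene-level values do not separate the 2 forms, had 81.6, 77.7, 94.0 and 86.3 TPM in epithelium and 81.8, 87.0, 89.0 and 91.1 TPM in pulp, a difference of -0.041 with an SE of 0.059 that did not pass the test. Under 3 other scalings it was 0.13 to 0.22 and passed toward epithelium. FGFR1 was higher in pulp (10.8 ± 2.94 and 70.4 ± 11.5 TPM). Of 9 feedback genes of the pathway 7 were lower in epithelium, led by SPRY3 (-5.00), SPRED1 (-2.64) and IL17RD (-2.05), and ETV4 was higher (0.76).

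Ectodysplasin signalling, needed for feather and hair placodes, was divided between the tissues as well. The ligand EDA had 82.9, 92.3, 96.2 and 128 TPM in pulp and 2.08, 2.93, 1.96 and 2.24 TPM in epithelium. Its receptor EDAR had 24.97, 26.7, 33.0 and 37.7 TPM in epithelium and 10.03, 8.61, 9.72 and 11.7 TPM in pulp, and the adaptor EDARADD 41.0, 35.5, 45.4 and 40.5 TPM and 12.4, 10.6, 11.6 and 10.2 TPM. The log2 differences were -4.92 (SE 0.12), 1.51 (SE 0.10) and 1.77 (SE 0.077), all called.

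EGF family genes were found on both sides. Of 8 ligands tested 4 were higher and 3 lower in epithelium, and of 5 receptors and inhibitors 3 were higher and 1 lower. AREG, encoding amphiregulin, had 50.2, 54.98, 57.9 and 62.4 TPM in epithelium and 0.515, 1.24, 3.08 and 2.29 TPM in pulp. BTC, encoding betacellulin, had 38.7, 47.6, 34.98 and 40.2 TPM and 2.09, 1.46, 4.16 and 2.12 TPM. Their receptor gene EGFR had 94.9 ± 9.57 TPM in epithelium and 30.5 ± 4.75 TPM in pulp, and ERBB2 was higher in epithelium too (1.73). NRG2, a neuregulin, was a pulp gene, with 57.2, 66.1, 61.8 and 70.4 TPM in pulp and 0.0834, 0.398, 0.118 and 0.242 TPM in epithelium, as was the receptor inhibitor LRIG1 (-2.39).

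PDGF and VEGF receptors were all higher in pulp (10 of 10 tested, median -4.82). Of these 10 genes 5 were under 1 TPM in every epithelium library and passed the filter only through pulp, so their direction was largely fixed beforehand. PDGFRA, a receptor of fibroblasts, had 142, 167, 169 and 160.4 TPM in pulp and 0.246, 0.664, 0.293 and 0.451 TPM in epithelium. VEGFA, the main growth factor of vessels, was read in both tissues and not called (25.5, 44.0, 23.5 and 36.8 TPM in epithelium and 25.95, 54.9, 34.5 and 44.9 TPM in pulp), whereas its receptors KDR and FLT1 were at 30.6 ± 4.93 and 50.9 ± 14.4 TPM in pulp and 0.0880 ± 0.0519 and 0.187 ± 0.0969 TPM in epithelium. Of 11 ligands 8 were lower in epithelium, and PGF (1.37) and VEGFD, listed as FIGF (1.96), were higher.

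Of 9 genes of insulin-like growth factors, their receptors and binding proteins 2 were higher and 6 lower in epithelium. IGF1 had 116, 181, 142.6 and 185 TPM in pulp and 0.232, 0.805, 0.218 and 0.192 TPM in epithelium. IGF1R, the receptor, had 12.1, 12.9, 11.04 and 7.77 TPM in epithelium and 5.62, 7.36, 6.54 and 8.24 TPM in pulp, a small difference with overlapping libraries (0.58, SE 0.18, adjusted p = 0.0177). It was no longer called without the lateral epithelium library of either batch or the medial one of batch I (0.51 to 0.52). The binding protein genes IGFBP4, IGFBP7 and IGFBP3 were higher in pulp (-7.65, -4.81 and -2.77), and IGFBP2 was higher in epithelium (0.39). Among Notch ligands, DLL4 of arterial endothelium had 25.6, 53.7, 33.3 and 46.3 TPM in pulp and 0.676, 0.899, 1.19 and 0.747 TPM in epithelium, JAG2 was higher in epithelium (86.5 ± 18.6 and 48.5 ± 6.06 TPM), and the receptor NOTCH1 was higher there too (0.65).

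Of 11 genes of retinoic acid synthesis and transport 1 was higher and 8 lower in epithelium, and of 5 of breakdown and reception 3 were higher and 2 lower. Under quantile normalization these counts were 3 and 5, and 3 and 1. CRABP2, a carrier that delivers retinoic acid to the nucleus, had 447, 449.6, 372 and 367 TPM in pulp and 1.55, 2.92, 0.730 and 1.93 TPM in epithelium. CRABP1, listed as CRABP-I, is per the study a carrier that passes retinoic acid to its receptors or to enzymes that degrade it. The study proposes that it likely promotes this signalling in pulp. Medial libraries of CRABP1 stood above lateral ones in both tissues, with 622, 506, 1070.4 and 1110.4 TPM in pulp and 80.8, 87.5, 134 and 142 TPM in epithelium. ALDH1A2, an enzyme of retinoic acid synthesis, went the other way, with 16.8, 13.2, 14.9 and 13.2 TPM in epithelium and 0.937, 0.997, 1.36 and 0.889 TPM in pulp. CYP26B1, which breaks retinoic acid down, overlapped between tissues, with 35.1, 60.7, 37.1 and 53.3 TPM in epithelium and 26.3, 56.3, 8.39 and 19.4 TPM in pulp (0.99, SE 0.29, adjusted p = 0.0156). Its 2 medial pulp libraries were the lowest of the 8, and without the medial pulp library of batch II the difference was 0.87 and not called. The call was also lost in the lateral libraries alone (0.26), in batch I alone (1.21), in batch II alone (0.76) and without the batch term.

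Guidance ligands and receptors were near the background as groups: of 20 ligands 7 were higher and 10 lower in epithelium, and of 24 receptors 7 and 11. Under quantile normalization these counts were 9 and 9 for ligands and 12 and 7 for receptors, so that neither tissue led in both scalings. SLIT2, a repellent of axons, had 30.2, 38.3, 49.1 and 48.2 TPM in pulp and 0.0709, 0.133, 0.0333 and 0.0196 TPM in epithelium, while its receptor gene ROBO1 was not called (0.12, SE 0.12). SEMA3F and its receptor NRP2 were both higher in pulp (-4.27 and -4.75). The ephrin receptor genes EPHA1 and EPHA4 were epithelial, EPHA1 with 96.0 ± 7.01 against 10.3 ± 1.96 TPM, and the ligand genes SEMA4B and SEMA3C were also higher in epithelium (1.37 and 1.21).

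Of 21 other paracrine ligands tested 16 were lower in epithelium, led by PENK and the growth factor PTN, with 433, 395, 362 and 359 TPM in pulp and 0.684, 1.33, 0.857 and 0.566 TPM in epithelium. KITLG, the stem cell factor that melanocytes and mast cells respond to, was among the 4 higher in epithelium, with 30.3, 24.3, 49.8 and 39.4 TPM and 14.7, 9.81, 17.9 and 11.9 TPM in pulp. EDN3, an endothelin of pigment cell development, was another, with 17.8 ± 1.72 and 5.44 ± 1.10 TPM. Of 17 receptors 15 were lower in epithelium and 0 higher. The opioid receptor gene OPRD1, the only receptor paired with PENK here, did not pass the filter, so this pair was not tested. ASIP, which blocks melanocortin receptors, varied within pulp with 103, 79.3, 56.4 and 24.8 TPM and was near 0 in epithelium with 0.133, 0.173, 0.250 and 0.0551 TPM.

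Proliferation genes had medians at that of all genes in the main fit, but below it under quantile normalization. Of 17 genes of DNA replication 12 were lower in epithelium and of 21 of mitosis 15, with none higher. Over all genes 53.4% were lower and 23.9% higher. The medians of the 2 groups, -0.36 and -0.39, lay at the -0.35 of all genes. Under quantile normalization they were -0.037 and -0.02, below the 0.15 of all genes. There 5 replication genes were higher and 6 lower, and 0 and 6 mitosis genes. ANLN, encoding the cleavage furrow protein anillin, differed most among them, with 33.9, 28.1, 34.2 and 26.3 TPM in epithelium and 64.9, 72.2, 62.5 and 75.9 TPM in pulp. The inhibitor CDKN1B, encoding p27, had 218, 196, 222.3 and 229 TPM in epithelium and 58.8, 53.4, 69.2 and 59.96 TPM in pulp, and p21, listed as CIP1, was higher in epithelium too (1.80). CDKN2C, encoding p18, was higher in pulp (5.28 ± 0.997 and 39.4 ± 2.82 TPM).

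Few genes were called for a tissue difference that varied with the side of the feather. A term for tissue by side passed for 6 of 12954 genes (0.0463%), with 1328 at an unadjusted p under 0.05. It passed for 10 genes without the medial pulp library of batch I, for 14 without that of batch II, for 1 without the lateral pulp library of batch II and for 0 without any of the other 5. The 6 genes, chosen after their values were seen, were 2 microRNA hairpins, PRPS2, an enzyme of nucleotide synthesis, and 3 Ensembl IDs that the tables used here do not pair with a name.

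ENSGALG00000026964 had 3044, 7725, 1994 and 5287 TPM in epithelium and 4.33, 15.1, 22.4 and 45.3 TPM in pulp, a larger tissue difference than that of BKJ (7.83, SE 0.45) and smaller on the medial side (interaction, medial minus lateral, -2.40, adjusted p = 0.0489). PRPS2 had 1.07, 0.992, 15.04 and 13.1 TPM in epithelium and 2.83, 2.91, 3.34 and 3.85 TPM in pulp, so that its epithelium stood above pulp on the medial side and below it on the lateral side (2.64, adjusted p = 0.0489). The hairpin gga-mir-1466 had 9.99, 16.1, 0.541 and 1.04 TPM in epithelium and 56.9, 71.6, 60.6 and 93.6 TPM in pulp (-3.18, adjusted p = 0.0160). Hairpins are short, so their per-length values rest on few reads and are uncertain.

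More genes were called for a tissue difference that varied with the batch. A term for tissue by batch passed for 183 genes (1.41%), and leaving out any 1 library gave 16 to 77. Of these genes 152 had the same tissue above in both batches. Among the largest, chosen after their values were seen, were genes of cytotoxic T cells: GZMA, encoding granzyme A, had 54.9, 2.54, 47.7 and 2.48 TPM in pulp, and the T cell receptor gene TRBC2 25.6, 2.81, 28.9 and 2.79 TPM, against 0.0976 and 0.0230 TPM on average in epithelium. JUN and NR4A3, both immediate early genes, were higher in the pulp of batch II. JUN had 129, 591, 123 and 607 TPM in pulp and 271, 248, 265 and 264 TPM in epithelium, so that it was below epithelium in batch I and above it in batch II, and NR4A3 had 25.2, 178, 20.1 and 189 TPM in pulp. The lateral and the medial pulp library of a batch lay close together in each of these 4 genes. Both batch I pulp libraries also had row names without barcode or lane, unlike the other remige libraries. Whether they were prepared or sequenced apart is not recorded and was not tested. In this term such a difference cannot be told apart from the batch.

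**Figure D5:**
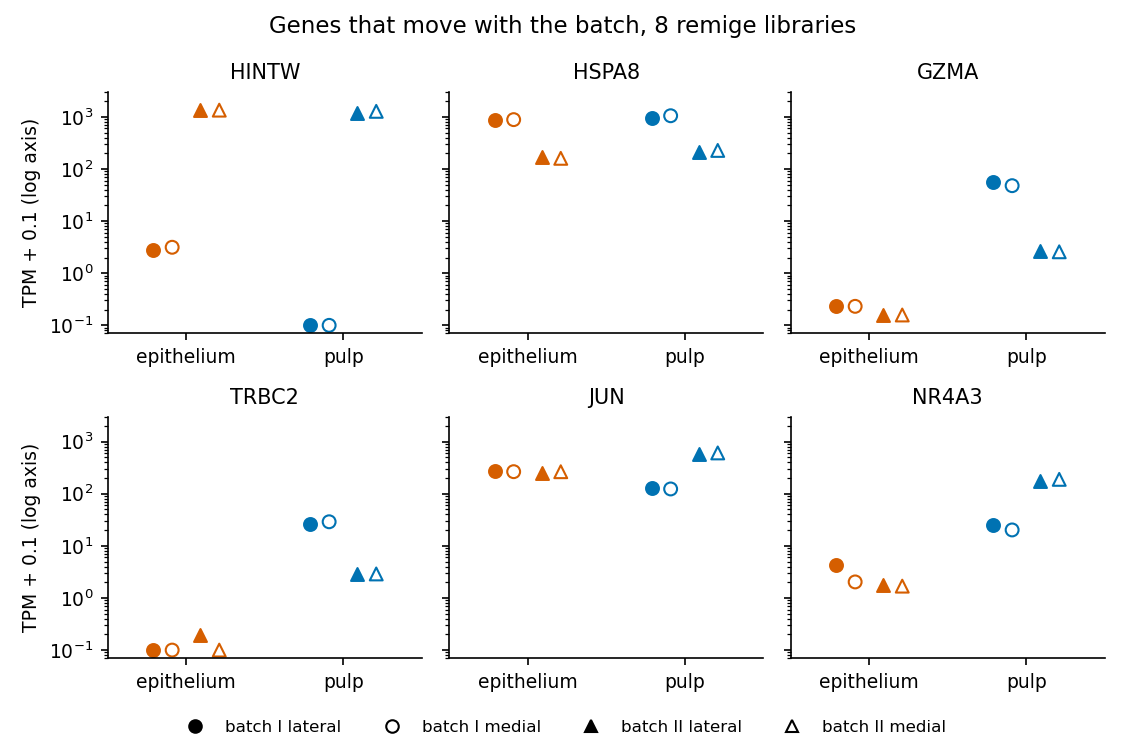
TPM plus 0.1 on a log axis of 6 genes in the 8 libraries, epithelium on the left and pulp on the right of each panel, circles for batch I and triangles for batch II, with filled symbols for the lateral and open symbols for the medial side. HINTW separates the batches in both tissues, HSPA8 does so by about 5-fold, and GZMA, TRBC2, JUN and NR4A3 do so in pulp.

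The tissue difference of remiges was last set beside that of body plumes, whose 8 libraries hold epithelium and pulp of dorsal and breast feathers. It differed between the feather types for 4842 of 13523 genes tested in both tables (35.8%). The tables were normalized separately, so the test compared only differences taken within a table, and the levels of the 2 feather types are given side by side. Plume libraries pooled 25 follicles and remige libraries 3, and the labels do not say that batches of the same number were made together. Feather type and such differences of preparation cannot be told apart.

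Among the genes with the largest such differences at 25 TPM or more, IGF1, GAP43 and NPY were further toward pulp in remiges. The pulp level of IGF1 was 156 ± 33.2 TPM in remiges against 14.2 ± 16.1 TPM in plumes, and that of GAP43 24.6 ± 6.18 against 0.233 ± 0.0985 TPM. NPY, a neuropeptide, was higher in pulp in remiges (20.02 ± 12.2 TPM in pulp and 0.0903 ± 0.181 TPM in epithelium), whereas in plumes its means were 5.36 ± 2.55 and 11.6 ± 11.3 TPM.

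IL17REL and HOXC10 were further toward epithelium in remiges. IL17REL, an interleukin 17 receptor-like gene, had 26.02, 11.5, 1.22 and 0.910 TPM in remige pulp and a mean of 383 ± 372 TPM in plume pulp. HOXC10, a posterior HOX gene, had 13.6, 7.94, 14.4 and 9.87 TPM in remige epithelium and 5.74, 4.35, 9.13 and 6.42 TPM in remige pulp, and in plumes means of 0.463 ± 0.242 and 99.8 ± 86.0 TPM, so that the higher tissue was the opposite one. Its difference between feather types was 6.32 on the log2 scale (SE 0.13, adjusted p = 7.77e-09). In both genes the pulp of dorsal plumes stood above that of breast plumes, which gives the large plume SDs. SHH and WNT10A were not called, with differences of 0.26 and 0.20 between feather types (SE 0.33 and 0.25).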

How the data were processed

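Strand-unspecific libraries (Illumina TruSeq RNA Sample Prep Kit Version2, 4 ug of total RNA) were aligned by the authors with TopHat2 to galGal4 and quantified in Partek, per the labels and the study's methods. The table the authors deposited gives RPKM (reads per gene, scaled by gene length and library size) for the 8 remige libraries, with the alignment count of each library in a column of its own. RPKM were rescaled to the common total of TPM. A gene was kept where the mean of any of the 4 groups (side and tissue) reached 1 TPM. limma 3.58.1 in R 4.3.3 was fitted on log2(TPM + 1) with tissue, side and batch, then with each interaction, and p-values were adjusted by Benjamini-Hochberg over all genes kept. Fold changes on this scale understate those of low genes. The batch, given in the labels, pairs the libraries: deviations from group means correlated between all 6 pairs of groups (r 0.446 to 0.805). The scripts were tested on simulated data.

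Genes named are the 12 largest differences in each direction at 100 TPM or more, leading or exceptional members of lists and pairs, and the 6 largest interactions, and a few of these genes are not reported here. The lists and their members were chosen with earlier results of these data known. Genes outside this rule, such as members that were not called, HINTW, KRT14, CD3E, PTPRC, TP63, DCN, MITF, SCEL, IGFBP3 and IGFBP7, were chosen after their values were seen. Of 865 list entries 752 were found in the table, 25 of them through RefSeq synonyms (GRCg7b, names only), and 78 did not pass the filter. Antisense and overlapping genes cannot be told apart without strand. The column names include 21 dates in place of symbols, which were not used, and the row names of the 2 pulp libraries of batch I are shorter than those of the other 6, without barcode or lane. Depth was 29379206 to 45755636 alignments per library, whose number limits the precision of low genes. RPKM carry no read counts, so no count test or counting interval was used. Alternatives tried were pseudocounts, filters, scalings, no batch term, single sides and batches, and leaving out each library.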

Additional observations from a re-analysis of the deposited data

Results flagged for a closer look

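Among 386 groups of 4 libraries (genes reported, epithelium or pulp), 19 had 1 library standing apart from the other 3 by Dixon's criterion at the 95% level, where chance gives about 1 in 20. The medial pulp library of batch I stood high in BKJ at 122 TPM (others 15.1 to 17.7) and in SLURP1 at 4.01 TPM (others 0.660 to 0.912). Both are epidermal genes.

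In pulp 3 further values stood apart. GAP43 was at 33.8 TPM in the lateral library of batch I (others 20.6 to 22.4). ID3 was at 108 TPM in the lateral library of batch II (others 139.9 to 146). LAMA3 was at 10.2 TPM in the medial library of batch II (others 14.1 to 14.5).

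The lateral epithelium library of batch II stood high in 7 genes. It had 1.82 TPM of COL4A1 (others 0.709 to 0.845), 0.805 of IGF1 (0.192 to 0.232), 0.166 of KDR (0.0594 to 0.0673), 0.401 of SFRP4 (0.0767 to 0.130), 0.0417 of RSPO3 (others at 0), 0.0921 of TRBC2 (others at 0) and 12.2 of RUNX2 (8.78 to 9.07). Of these 7 genes 6 are pulp genes by the test above, RUNX2 being higher in epithelium. Flags as a whole were about as frequent as chance gives, and pulp genes were also flagged in other epithelium libraries. Summed over all 21 fibroblast markers the 4 epithelium libraries lay at 328 to 364 TPM, with the lateral one of batch II the highest. That library was also the highest in summed endothelial and leukocyte markers, but not in those of smooth muscle and pericytes.

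In the other epithelium libraries 7 values stood apart. The lateral library of batch I had 4.25 TPM of NR4A3 (1.59 to 1.93), 0.361 of NPY (others at 0) and 0 of SPRY3 (0.0860 to 0.0975). The medial library of batch I had 109 TPM of EGFR (89.1 to 91.5) and 0.0916 of FGF10 (others at 0), and that of batch II 0.0434 of FGF7 (0.123 to 0.136) and 0.199 of GAP43 (0.0522 to 0.0602).

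The tissue difference varied between feather types, by a test of that difference, for the genes described above. On the log2 scale, remige minus plume, it was 6.32 for HOXC10, 4.60 for IL17REL, -4.56 for NPY, -4.33 for GAP43 and -4.15 for IGF1. Between the sides of the remige (medial minus lateral) it was 2.64 for PRPS2, -2.40 for ENSGALG00000026964 and -3.18 for gga-mir-1466.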

How the results depend on the processing

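Counts of genes by tissue were within 1.5 times of the main fit except under 3 alternatives, and the cause was not tested beyond their construction. Quantile normalization gave 5829 higher, 4342 lower and 747 at least 4-fold higher. A minimum of 25 TPM, which tests fewer genes, gave 2031 higher, 3486 lower and 999 at least 4-fold lower. A pseudocount of 5 TPM gave 294 and 958 at 4-fold. Without the replicate block (no batch term) 2538 genes were higher and 5994 lower. Leaving out 1 library gave 2818 to 3019 higher, 6479 to 6867 lower, and 450 to 474 and 1775 to 1810 at 4-fold. Leaving out both pulp libraries of batch I or of batch II, chosen after seeing the data, gave 2710 and 2761 higher and 6618 and 6010 lower.

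The tissue by side count (6) was 0 under a pseudocount of 5 TPM, no filter, RPKM and no replicate block, 1 under quantile and median log ratio scaling, 2 without the 100 most abundant genes in the scaling, and 0 to 14 with 1 library left out. Tissue by batch (183) gave 39 and 355 with pseudocounts of 0.1 and 5 TPM, 42 at a minimum of 25 TPM, 288 on RPKM, 97 without the 100 most abundant genes, and 16 to 77 with 1 library left out. Tissue by feather type (4842) gave 3066 at a minimum of 25 TPM, 2904 with no replicate block and 4020 to 4783 with 1 library left out.

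Of 4792 values of single genes under these settings 8 reversed, in 5 genes. FGFR2 was at 0.13 under median log ratio scaling, 0.22 under quantile normalization and 0.17 without the 100 most abundant genes. Under quantile normalization KRT222 was at 0.49 and LGR5 at 0.54. JUN was at 1.08 in batch I alone and without both batch II pulp libraries, and PRPS2 at -0.93 in the lateral libraries alone. A call was lost in at least 1 setting for 17 of the 179 genes reported and called. RPKM without reads limit the precision of genes near 1 TPM, and 2 libraries per group limit the interaction tests.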

Other observations

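Cytosolic ribosomal protein genes and mitochondrially encoded genes differed in opposite directions in the main fit. Of 67 cytosolic ribosomal protein genes tested 63 were higher in epithelium and 0 lower, where 23.9% of all genes were higher. Their median log2 difference was 0.42, beside -0.35 over all genes, and 0.16 to 0.64 under 4 other scalings. The lowest value, 0.16, came from quantile normalization, where the median of all genes was 0.15, so they did not stand apart there. Together they took 22.8% to 24.4% of the TPM of an epithelium library and 16.4% to 18.8% of a pulp library. All 12 mitochondrially encoded protein genes were lower in epithelium (median -1.04, and -1.34 to -0.83 under the other scalings), with 1.58% to 2.56% of the TPM in epithelium and 3.02% to 5.09% in pulp. The libraries of the 2 tissues did not overlap in either share. These families were chosen after their values were seen, and the state of the tissue at collection was not recorded in the labels. In mammals ribosomal protein genes have many processed copies, and whether reads were shared with copies in chicken was not tested.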
